A study of Mus musculus with 21 samples.

Results

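Heat shock chaperones of the cytosol were compared between the neocortex of rNLS8 mice and their control littermates for 10 genes: Hspa1a, Hspa1b and Hspa8 of the HSP70 family, Hsph1 of the HSP110 family, Hsp90aa1, the J-domain genes Dnajb1, Dnajb2 and Dnajb5, the small heat shock gene Hspb1, and Bag3. The genes were taken by their symbols from the 48474 rows of the deposited table of read counts, and all 10 passed the filter on low counts. rNLS8 mice are bigenic: NEFH-tTA, which uses the neurofilament heavy chain promoter and so acts almost only in neurons, drives tetO-hTDP-43ΔNLS, a human TDP-43 without nuclear localization signal. The controls, labelled WT and called wild-type here, are monogenic littermates on the same C57BL/6J background, and the labels do not say which of both transgenes each one carries. All mice, controls included, had received a control antisense oligonucleotide without a target (350 µg in 10 µL, injected into a cerebral ventricle) at 17-19 weeks of age and had been fed doxycycline (200 mg/kg), which keeps the transgene off, until 2 weeks later. Neocortex was collected after 3 weeks without doxycycline from 11 wild-type mice (4 in batch A, 7 in batch B) and 10 rNLS8 mice (3 in batch A, 7 in batch B), with 20700912 to 22263809 counted reads per mouse. The batches are independent cohorts.

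HSP70 proteins bind unfolded stretches of client proteins and release them in a cycle driven by ATP. J-domain proteins bring clients to HSP70 and start ATP hydrolysis, HSP110 and BAG domain proteins exchange its nucleotide, small heat shock proteins hold unfolding proteins without ATP, and HSP90 acts late in the folding of kinases and receptors. Neurons rely on a constitutive HSP70, encoded by Hspa8, and add inducible forms such as Hspa1a and Hspa1b when heat shock factors bind their promoters under proteotoxic stress. Chaperones of this network are studied in amyotrophic lateral sclerosis because TDP-43 aggregates in the cytosol of affected neurons.

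In rNLS8 neocortex, 5 of the 10 chaperone genes were lower and none was higher, by edgeR as by DESeq2. Hsph1 fell most, followed by Hspa1b, Hsp90aa1, Hspa1a and Dnajb1, while Hspa8, Hspb1, Dnajb2, Dnajb5 and Bag3 did not pass the threshold. Over all 18248 genes tested, 44.7% passed in either direction, 21.7% were lower and 23% were higher, so that the members' share past the threshold in either direction was near that of all genes and their share of lower genes was above it. The test was edgeR's quasi-likelihood test with batch as covariate at an adjusted p under 0.05, and log2 fold changes are given as rNLS8 over wild-type, so that a negative value means lower in rNLS8 mice. Of the calls over all genes, 48.6% were lower, but only 32.1% with scaling by library size alone, under which the same 5 members were still lower and Bag3 was also called, as higher.

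Some values bear on all of these results. Tardbp, whose row can also take reads of the human transgene, had 2253 to 2827 normalized counts (counts scaled to the mean effective library size) in wild-type mice and more in 9 of the 10 rNLS8 mice, but only 2363 in the batch A library labelled rNLS8 T61340, which lay within the wild-type range. In rNLS8 mice it ranged from 2363 to 3091 in batch A and from 4405 to 5053 in batch B. Wild-type mice had 2253 to 2650 and 2507 to 2827. The genotypes thus lay closer together in batch A, and the part of this in the results of each batch was not tested. Without T61340, Hsph1 (log2 fold change -0.76), Hspa1b (-0.61), Hsp90aa1 (-0.42), Hspa1a (-0.40) and Dnajb1 (-0.27) kept their calls. With T60303 also left out, the mouse with the lowest values of several members, they were -0.74, -0.56, -0.38, -0.39 and -0.25 with the same calls. The neocortical neuron markers Tbr1, Neurod6, Cux2, Fezf2, Rorb, Emx1 and Slc17a7 were counted in every mouse. Of these 7 genes, Neurod6 was lower (log2 fold change -0.28, adjusted p = 0.0134), Emx1 was higher (0.23, adjusted p = 0.0305) and the others, among them the abundant Slc17a7 (0.06, adjusted p = 0.561), did not pass. Of 7 general neuron markers, 5 were lower, and their summed level was 5054 to 6465 CPM (counts scaled to the library total) in wild-type and 3429 to 4542 in rNLS8 mice, without overlap; their part in the fall of the chaperone genes was not tested. In bulk tissue, fewer neurons and less RNA per neuron cannot be told apart. Among glial markers, 1 of 7 astrocyte genes was higher and 4 were lower, 4 of 7 microglial genes were higher and 1 was lower, and 0 of 7 oligodendrocyte genes passed in either direction by edgeR, also at an unadjusted p under 0.05, with summed levels that overlapped between genotypes in each of these lists.

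**Figure D1:**
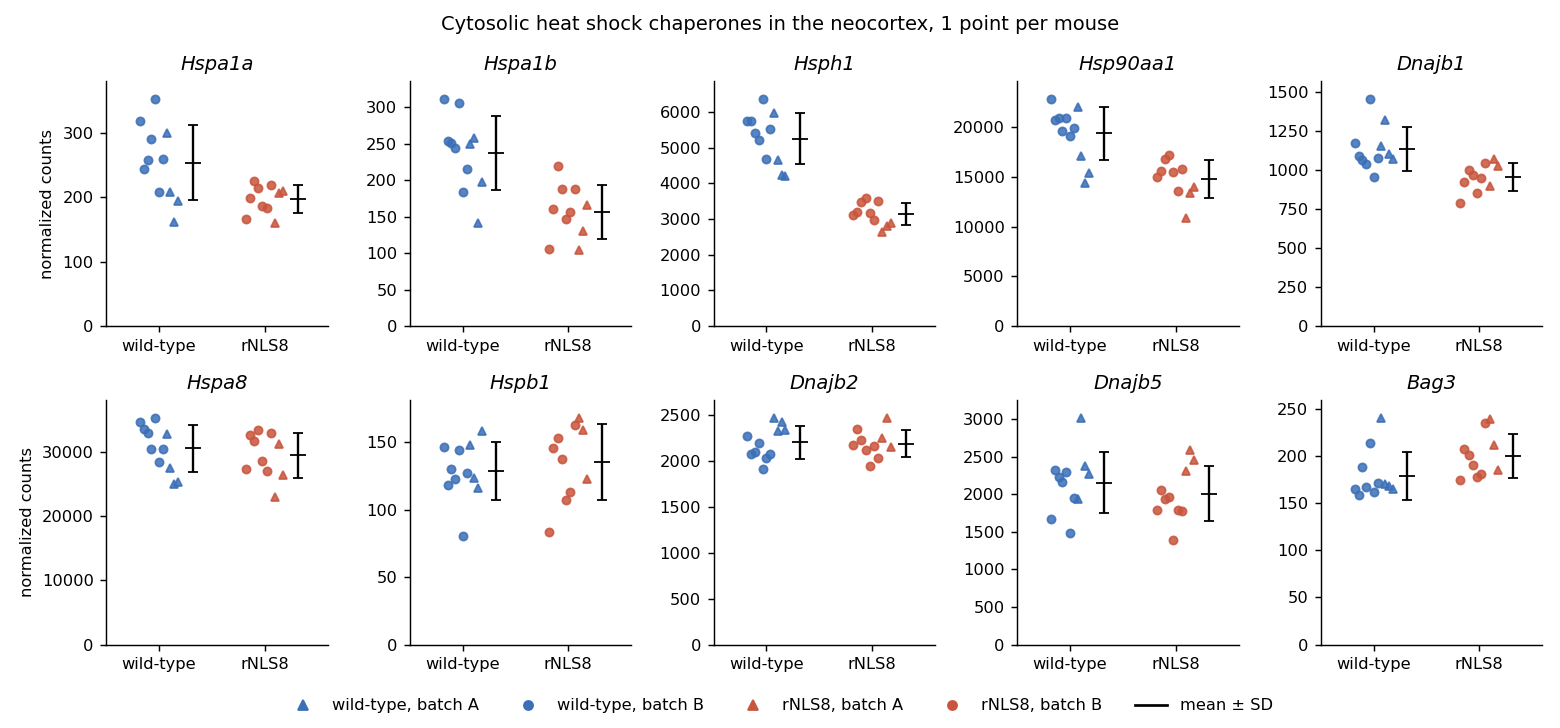
Normalized counts (y axis, from 0) of each of the 10 chaperone genes in the 11 wild-type and 10 rNLS8 mice, 1 point per mouse, with triangles for batch A, circles for batch B and bars for the mean ± SD. Hsph1 is the gene with no overlap between genotypes, with a highest rNLS8 value of 3581 under a lowest wild-type value of 4196.

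Hspa1a and Hspa1b encode the stress-inducible HSP70. They lie side by side on the minus strand of chromosome 17 of GRCm38.p6, Hspa1b at 34956429 to 34959238 and Hspa1a at 34969359 to 34972156, and each has a single coding exon in GENCODE M21. Their coding sequences of 1926 and 1929 bases differ by 8 substitutions and 3 gap bases and share a longest identical run of 638 bases, so that 67.8% of windows of the 100-base read length are the same in both genes. A single read from such a window cannot be assigned to 1 gene. The untranslated parts of the transcripts and the span of read pairs were not compared. Their promoters are near copies as well. In the RefSeq windows on GRCm38.p6, which run from 250 bases before to 50 after the start site, 296 of 300 bases are identical, and the 150 bases before the start are shown here because both genes are read as a pair below. The capitals mark the letters GAANNTTC, the core of a heat shock element, 104 bases before each start.
Hspa1a, chr17:34972157-34972306, minus strand: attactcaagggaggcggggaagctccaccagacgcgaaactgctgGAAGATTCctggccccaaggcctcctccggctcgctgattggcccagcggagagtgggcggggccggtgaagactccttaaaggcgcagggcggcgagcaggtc
Hspa1b, chr17:34959239-34959388, minus strand: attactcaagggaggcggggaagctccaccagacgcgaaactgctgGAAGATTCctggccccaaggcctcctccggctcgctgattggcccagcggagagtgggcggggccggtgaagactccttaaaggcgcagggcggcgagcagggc

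Hspa1a had 161 normalized counts in the lowest, 258 in the median and 352 in the highest wild-type mouse, and 161, 203 and 225 in rNLS8 mice. The ranges overlapped, but 10 of 10 rNLS8 mice were below the wild-type median. The means were 254 ± 58.1 (SD, n = 11) and 197 ± 22.1 (SD, n = 10), a log2 fold change of -0.37 ± 0.10 (SE) at an adjusted p of 0.00499. Hspa1b had 141, 249 and 311 normalized counts in wild-type mice and 104, 158 and 219 in rNLS8 mice (lowest, median and highest). Here 3 rNLS8 mice were below all wild-type mice and all 10 were below the wild-type median. The means were 237 ± 50.3 (SD, n = 11) and 156 ± 36.6 (SD, n = 10), a log2 fold change of -0.62 ± 0.12 (SE) at an adjusted p of 0.000243.

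The deposited table holds 4 rows for each of these symbols, the main row used above and 3 that carry a suffix, and the suffixed rows were lower in rNLS8 mice as well, with log2 fold changes between -0.61 and -0.35 and adjusted p-values between 0.000146 and 0.0418. How reads that match several copies were counted is not known, so a read may stand in more than 1 row. The sum of all 8 rows was 841, 1456 and 1853 normalized counts in wild-type mice and 780, 1007 and 1247 in rNLS8 mice (lowest, median and highest). Of the rNLS8 mice, 2 were below all wild-type mice and 10 of 10 were below their median. The mean fell from 1387 ± 291 (SD, n = 11) to 1013 ± 162 (SD, n = 10), a log2 fold change of -0.46 ± 0.10 (SE) at an adjusted p of 0.000665. In batch B alone it was -0.52 (adjusted p = 0.000970) and in batch A alone -0.35 (adjusted p = 0.248).

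Hspa8 encodes the constitutive HSP70 that also uncoats clathrin vesicles at synapses (chromosome 9, 40801276 to 40805202). It was the most abundant member and ranged from 24919 through a median of 30437 to 35266 normalized counts in wild-type mice and from 22971 through 29890 to 33421 in rNLS8 mice. Each genotype covered nearly the same range, with 5 rNLS8 mice on either side of the wild-type median. The means of 30523 ± 3631 (SD, n = 11) and 29393 ± 3478 (SD, n = 10) gave a log2 fold change of -0.07 ± 0.061 (SE) at an adjusted p of 0.409, and its sign turned with scaling by library size alone.

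Hsph1 encodes HSP105, an HSP110 protein that exchanges the nucleotide of HSP70 and takes part with it in pulling proteins out of aggregates (chromosome 5, 149616843 to 149636498, minus strand). It was the member with the largest change. Its lowest, median and highest values were 4196, 5419 and 6356 normalized counts in wild-type and 2644, 3148 and 3581 in rNLS8 mice. All 10 rNLS8 mice were below all 11 wild-type mice, as was the case in this direction for 3.8% of the genes tested. The mean fell from 5249 ± 718 (SD, n = 11) to 3138 ± 316 (SD, n = 10), a log2 fold change of -0.76 ± 0.060 (SE) at an adjusted p of 4.21e-10. This log2 fold change was the 270th lowest of the 18248. Batch A alone gave -0.75 (adjusted p = 0.00541) and batch B alone -0.76 (adjusted p = 1.95e-08).

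Hsph1 was also the only one of the 8 members with a promoter in the table that held a 3-unit heat shock element, the letters GAANNTTC followed directly by NNGAA, searched on both strands, which contains both 2-unit forms. That element is found in 0.603% of the 32851 promoter windows of the same length, against 7.86% for GAANNTTC and 8.52% for TTCNNGAA, which read the same on both strands. The promoter table gives start sites of Hsph1 that lie inside the gene span above. Counted from the more upstream of them, the 3-unit element lies from 36 to 48 bases after the start and a further TTCNNGAA 33 bases before it. Both are shown because they set Hsph1 apart in sequence from the other members, with the elements in capitals.
Hsph1 before this start site, inside the gene span, chr5:149636350-149636381, minus strand: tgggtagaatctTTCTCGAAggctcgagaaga
Hsph1 after this start site, chr5:149636287-149636308, minus strand: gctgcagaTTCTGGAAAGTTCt

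Hsp90aa1 encodes the inducible HSP90-alpha (chromosome 12, 110691036 to 110696395). It had 14363, 19943 and 22814 normalized counts in the lowest, median and highest wild-type mouse, and 10842, 15232 and 17244 in rNLS8 mice. Over both batches 4 rNLS8 mice lay under the lowest wild-type mouse, and within each batch there was no overlap, with 3 of 3 rNLS8 mice below all 4 wild-type mice in batch A and 7 of 7 below all 7 in batch B. The mean fell from 19373 ± 2687 (SD, n = 11) to 14762 ± 1885 (SD, n = 10), a log2 fold change of -0.41 ± 0.064 (SE) at an adjusted p of 1.17e-05. In batch A alone the change was of the same size, -0.42, but did not pass the threshold (adjusted p = 0.116).

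Dnajb1 encodes HSP40, a J-domain partner that HSP70 uses against aggregates (chromosome 8, 83608175 to 83612653). It ranged from 955 through a median of 1088 to 1454 normalized counts in wild-type mice and from 792 through 960 to 1073 in rNLS8 mice. The ranges overlapped, with 5 rNLS8 mice below all of the wild-type mice and all 10 below the wild-type median. The means of 1136 ± 140 (SD, n = 11) and 953 ± 89.2 (SD, n = 10) gave a log2 fold change of -0.25 ± 0.065 (SE) at an adjusted p of 0.00276, the smallest of the 5 called changes. In batch A alone it was -0.20 (adjusted p = 0.294).

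Neither of the other two J-domain genes passed the threshold. Dnajb2, whose neuronal protein carries ubiquitin-binding motifs and hands clients to the proteasome (chromosome 1, 75236395 to 75245692), ranged from 1918 through 2199 to 2473 normalized counts in wild-type and from 1943 through 2171 to 2465 in rNLS8 mice. Its values lay entirely within the wild-type range, with a log2 fold change of 0.00 ± 0.040 (SE) at an adjusted p of 0.968, the smallest standard error of the members. Dnajb5 (chromosome 4, 42949867 to 42959425) ranged from 1481 through 2225 to 3018 normalized counts in wild-type and from 1387 through 1952 to 2592 in rNLS8 mice. Dnajb5 had a log2 fold change of -0.09 ± 0.085 (SE) at an adjusted p of 0.423 and had the opposite sign in batch A alone (0.06).

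Hspb1 encodes HSP27, a small heat shock protein that also binds actin filaments (chromosome 5, 135887919 to 135889563). It had 80.4, 127 and 158 normalized counts in the lowest, median and highest wild-type mouse and 83.3, 141 and 168 in rNLS8 mice, of which 3 were above every wild-type mouse. The log2 fold change was 0.08 ± 0.11 (SE) at an adjusted p of 0.590. Its promoter held 2 matches of GAANNTTC, in capitals here, which are shown because this gene carries heat shock element letters like the HSP70 pair and did not pass the threshold.
Hspb1, chr5:135887790-135887841, plus strand: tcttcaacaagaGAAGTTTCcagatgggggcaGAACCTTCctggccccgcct

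Bag3 encodes the co-chaperone that links HSP70 and small heat shock proteins to autophagy (chromosome 7, 128523583 to 128546981). It had 159, 168 and 241 normalized counts in wild-type mice and 174, 196 and 240 in rNLS8 mice (lowest, median and highest). All 10 rNLS8 mice lay within the wild-type range and above the wild-type median, which sat near the low end of that range. The means of 179 ± 25.8 (SD, n = 11) and 201 ± 23.3 (SD, n = 10) gave a log2 fold change of 0.17 ± 0.078 (SE), with an unadjusted p of 0.040 and an adjusted p of 0.0813 that missed the threshold. Without wild-type mouse T61334, the highest of its genotype, it was 0.21 (adjusted p = 0.0179), and without wild-type mouse T_69527 it was also 0.21 (adjusted p = 0.0276). The Bag3 promoter held GAANNTTC 42 bases after the start.

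Of the members, 8 had promoters in the table, with 13 windows in all, and Hspa8 and Hsp90aa1 had none there. The letters of at least 1 heat shock element were found in 5 of the 8 (Hspa1a, Hspa1b, Hsph1, Hspb1 and Bag3), and no window of Dnajb1, Dnajb2 or Dnajb5 held them. These matches describe the windows alone: Dnajb1 fell without a match, and Hspb1 and Bag3 have matches and did not pass.

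**Figure D2:**
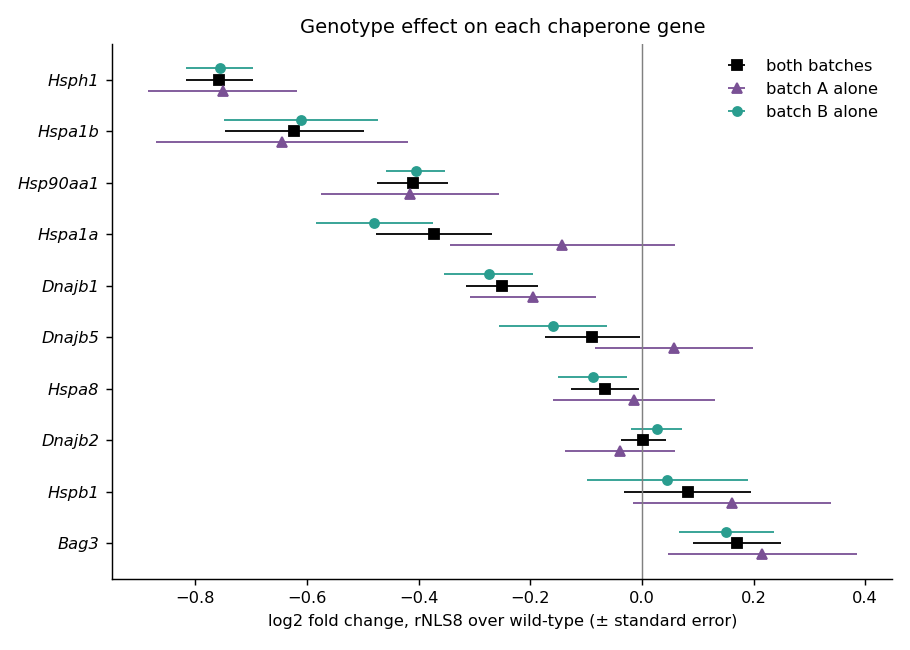
Log2 fold change of each chaperone gene, rNLS8 over wild-type (x axis), with bars for ± 1 standard error, from both batches (squares), batch A alone (triangles) and batch B alone (circles). The estimates for Hsph1, Hspa1b and Hsp90aa1 lie close together in both batches, while Hspa1a is at -0.14 in batch A and at -0.48 in batch B.

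A genotype effect that differs between batches was tested for with their interaction in edgeR. No gene of the whole table passed (1030 had an unadjusted p under 0.05), and the lowest adjusted p among the members was 0.877, for Hspa1a, whose log2 fold change was -0.14 in batch A (adjusted p = 0.700) and -0.48 in batch B (adjusted p = 0.00126). Batch B alone called Hsph1, Hspa1b (-0.61), Hsp90aa1 (-0.41), Hspa1a and Dnajb1 (-0.27), all lower, beside 39.1% of all genes in either direction and 19.8% that were lower. Batch A alone, with 4 against 3 mice, called only Hsph1 among the members, as lower, beside 11.8% of all genes in either direction, 4.83% lower and 6.99% higher, and Hspa1b was at -0.64 (adjusted p = 0.0893).

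Per kilobase of transcript, the members spanned a wide range of levels in wild-type neocortex, on the RPKM scale (reads per kilobase of the longest protein-coding GENCODE M21 transcript, scaled to the library total). Hspa8 was at 597 ± 71.0 (SD, n = 11), Hsp90aa1 at 277 ± 38.4 and Hsph1 at 64.7 ± 8.85. Dnajb2 followed at 33.6 ± 2.73 and Dnajb5 at 30.6 ± 5.75, which did not differ beyond their spread, and Dnajb1 was at 17.8 ± 2.19. With all their rows added, Hspa1a was at 11.7 ± 2.55 and Hspa1b at 10.8 ± 2.31, again not apart from each other. Hspb1 at 6.48 ± 1.07 and Bag3 at 3.27 ± 0.471 were the lowest, with ranges that met between 4.05 and 4.41. From Dnajb2 downwards, each gene overlapped in range with the next in this order in wild-type mice. The order of the means was the same in rNLS8 mice, but not all of these overlaps. There the lowest Dnajb5 value of 19.7 was above the highest of Dnajb1 at 16.8. The lowest Dnajb1 value of 12.4 was above the highest of Hspa1a with all rows added, at 10.6. The place of the HSP70 pair depends on the rows: from the main rows alone, Hspa1a was at 4.01 ± 0.917 and Hspa1b at 3.96 ± 0.841 in wild-type mice, between Hspb1 and Bag3, and in rNLS8 mice they were at 3.11 ± 0.349 and 2.61 ± 0.612, below Bag3 at 3.67 ± 0.425 (SD). The level of Hsph1 there was 38.7 ± 3.89 (SD, n = 10), with a lowest mouse at 32.6, so that its range overlapped that of Dnajb2 (up to 37.7), from which it was apart in wild-type mice.

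Hsph1, Hsp90aa1 and the HSP70 pair were next set against the constitutive Hspa8 or Hsp90ab1 within each mouse, as log2 ratios of normalized counts. These ratios do not depend on the scaling of libraries. They were chosen after the values of the genes had been seen and are given without a test. They cover only these genes and do not describe inducible and constitutive chaperones as classes. Outside them, Hspb1 (log2 fold change 0.08) and Bag3 (0.17) did not pass the threshold, and Hspa2 (-0.53) and Hspa4l (-0.50) were lower. The ratio of Hsph1 to Hspa8 ranged from -2.60 to -2.45 in wild-type and from -3.48 to -3.12 in rNLS8 mice. The genotypes did not overlap, and the means of -2.54 ± 0.057 (SD, n = 11) and -3.22 ± 0.11 (SD, n = 10) differed by far more than the spread of either. The ratio of Hsp90aa1 to Hsp90ab1, the constitutive HSP90-beta gene (log2 fold change -0.01, adjusted p = 0.940), ranged from -0.66 to -0.46 in wild-type and from -1.26 to -0.80 in rNLS8 mice, with means of -0.59 ± 0.067 and -0.99 ± 0.13 (SD). Here, too, all 10 rNLS8 mice were below all 11 wild-type mice, although the counts of Hsp90aa1 alone overlapped. The ratio of the 8 rows of Hspa1a and Hspa1b to Hspa8 was -4.48 ± 0.18 in wild-type and -4.87 ± 0.16 in rNLS8 mice (SD), with 5 of 10 rNLS8 mice lower than any wild-type mouse. Wild-type mouse T61333 of batch A was lowest of its genotype, at -4.89. Averaged over batches by their size, the differences were -0.68, -0.40 and -0.39 in this order.

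**Figure D3:**
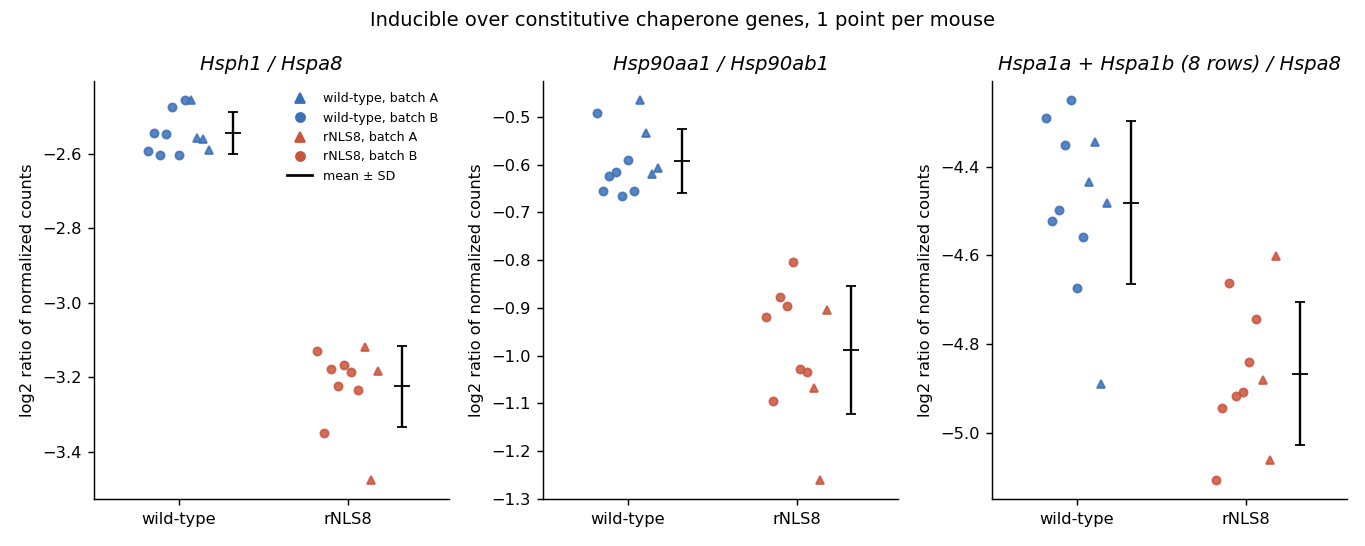
Log2 ratio of normalized counts (y axes, which do not start at 0) of Hsph1 to Hspa8, of Hsp90aa1 to Hsp90ab1 and of all 8 rows of Hspa1a and Hspa1b to Hspa8, 1 point per mouse, with triangles for batch A, circles for batch B and bars for the mean ± SD. The genotypes are apart in the first and second panels (-2.60 against -3.12 and -0.66 against -0.80 at their nearest) and overlap in the third.

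The members also varied from mouse to mouse within a genotype, and several did so together. For this, log2 CPM values were centred on the mean of each genotype and batch, and Hspa1a was correlated with each other member (18 relations, permutation tests within batch with p-values adjusted over all of them). Hsph1 followed Hspa1a in wild-type mice (Pearson r = 0.88, permutation adjusted p = 0.0121; Spearman rho = 0.78, adjusted p = 0.0358) and in rNLS8 mice (r = 0.83, adjusted p = 0.0149; rho = 0.83, adjusted p = 0.0358). Without the 2 mice farthest from the median of Hspa1a, r was 0.67 and 0.90. Hsp90aa1 did the same, with permutation adjusted p-values of 0.0149 in wild-type (r = 0.82, rho = 0.75 with adjusted p = 0.0391) and 0.0243 in rNLS8 mice (r = 0.82, rho = 0.78 with adjusted p = 0.0464), and r of 0.75 and 0.82 without those mice. Hspa8, which did not pass the test of genotype, varied with Hspa1a as well, with r = 0.86 in wild-type (permutation adjusted p = 0.0121; rho = 0.80, adjusted p = 0.0358) and r = 0.83 in rNLS8 mice (adjusted p = 0.0243; rho = 0.67, adjusted p = 0.0856), and r of 0.68 and 0.70 without the 2 farthest. Hspa1b, which shares most of its coding sequence with Hspa1a, had r = 0.83 (permutation adjusted p = 0.0165, rho = 0.71 with adjusted p = 0.0544) and r = 0.93 (adjusted p = 0.00288, rho = 0.93 with adjusted p = 0.0173), or 0.84 in both genotypes without the 2 farthest.

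Dnajb1 had r = 0.61 in wild-type (permutation adjusted p = 0.0718; rho = 0.69, adjusted p = 0.0544) and r = 0.90 in rNLS8 mice (adjusted p = 0.0121; rho = 0.88, adjusted p = 0.0326), or 0.56 and 0.75 without the 2 farthest. Hspb1 was related to Hspa1a in wild-type mice (r = 0.71, permutation adjusted p = 0.0243; rho = 0.69, adjusted p = 0.0544; r = 0.75 without the 2 farthest) and did not pass in rNLS8 mice (r = 0.54, adjusted p = 0.167; rho = 0.53, adjusted p = 0.196). For Bag3 the wild-type relation (r = 0.78, permutation adjusted p = 0.0303; rho = 0.70, adjusted p = 0.0478) rested on wild-type mice T61334 and T_69527, without which r was 0.25, and r was 0.18 in rNLS8 mice (adjusted p = 0.746; rho = 0.26, adjusted p = 0.554). Dnajb2 and Dnajb5 passed in neither genotype, with r between 0.00 and 0.42, permutation adjusted p-values of 0.294 or more, and rho between 0.01 and 0.37 with adjusted p-values of 0.416 or more. Without the 2 farthest mice, r in wild-type and rNLS8 mice was 0.64 and 0.15 for Dnajb2 and 0.21 and 0.51 for Dnajb5, so that the low wild-type value of Dnajb2 rested on T61334 and T_69527. The difference between genotypes was not tested for any relation. In batch B alone, with 7 mice of each genotype, r with Hspa1a was 0.80 and 0.85 for Hsph1, 0.61 and 0.71 for Hsp90aa1, 0.74 and 0.86 for Hspa8, 0.88 and 0.96 for Hspa1b, 0.86 and 0.89 for Dnajb1, 0.86 and 0.95 for Hspb1 and 0.61 and 0.75 for Bag3 (wild-type and rNLS8). For Hspb1 and Bag3 in rNLS8 mice, r was thus higher within batch B than over both batches. Batch A holds 4 and 3 mice, too few for a value of its own. As a background, the median r of Hspa1a with all genes tested was 0.02 in wild-type and 0.04 in rNLS8 mice, and 0.219% and 0.976% of genes had an r as high as that of Hsph1. In wild-type mice this share was 0.356% for Hspa8, 0.899% for Hspa1b, 0.976% for Hsp90aa1, 2.10% for Bag3, 4.60% for Hspb1 and 9.46% for Dnajb1. In rNLS8 mice it was 0.0493% for Hspa1b, 0.159% for Dnajb1, 0.959% for Hspa8, 1.10% for Hsp90aa1, 14.3% for Hspb1 and 39.7% for Bag3. Mice of a genotype can also differ together in the RNA of many genes at once, and genes are not independent replicates.

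**Figure D4:**
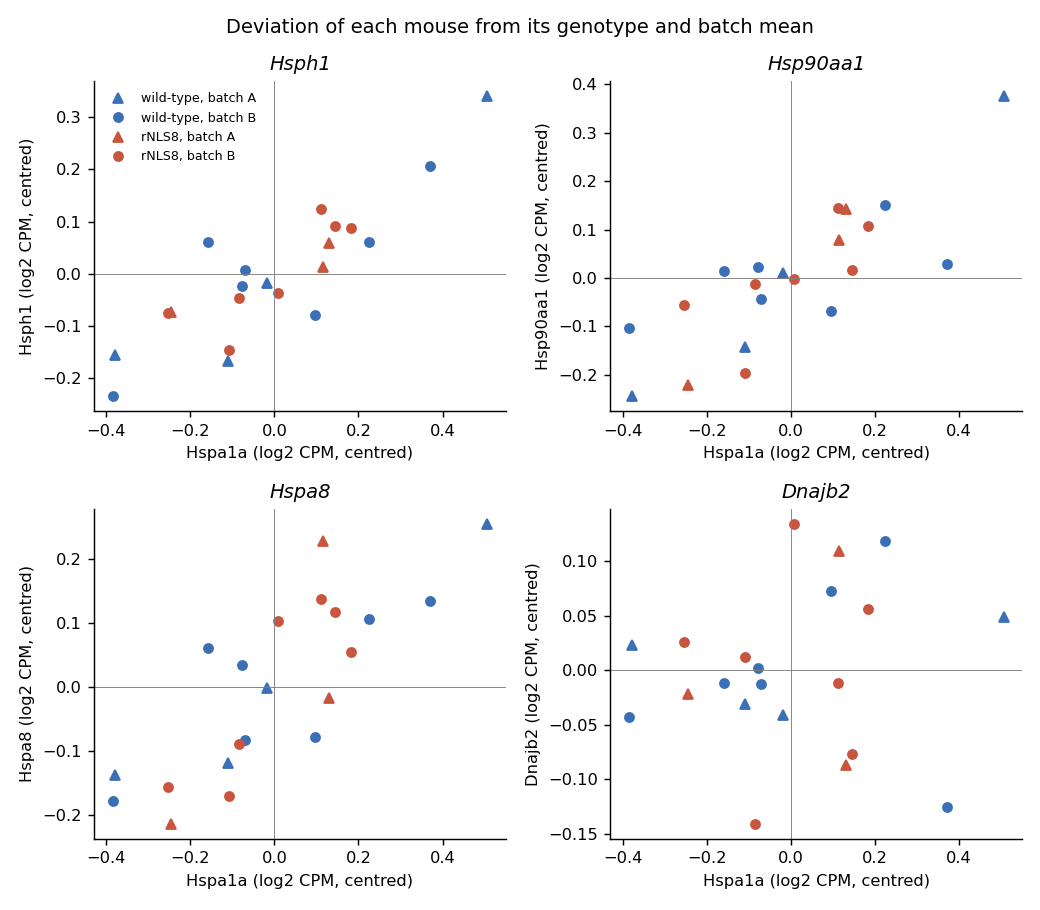
Deviation of each mouse from the mean of its genotype and batch in log2 CPM, for Hspa1a (x axes) and for Hsph1, Hsp90aa1, Hspa8 and Dnajb2 (y axes), with blue for wild-type, red for rNLS8, triangles for batch A and circles for batch B. Points rise from lower left to upper right for Hsph1, Hsp90aa1 and Hspa8 (r from 0.82 to 0.88 in either genotype) and are more scattered for Dnajb2 (r = 0.14 and 0.08, or 0.64 in wild-type mice without the 2 farthest).

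Other chaperone genes were read from lists by family, each from its main row. Of the genes named below, Bag6 and Hspa1l have 3 suffixed rows each and Hspa4l has 1, which these values leave out. Of 56 genes in 7 lists of cytosolic and nuclear chaperones, co-factors and heat shock factors, 55 were tested, 26 (47.3%) were lower and 9 were higher, beside 21.7% and 23% of all genes, with a median log2 fold change of -0.14 against 0.00 over all genes tested and -0.17 over the 10 members. The share of lower genes was highest among J-domain proteins and among HSP70 and HSP110 relatives. Of 7 other cytosolic HSP70 and HSP110 genes, 5 were lower and 0 higher (median -0.28), led by Hspa2 (-0.53, adjusted p = 9.10e-08), Hspa4l, an HSP110 like Hsph1 (-0.50, adjusted p = 1.44e-06), and Hspa1l (-0.48, adjusted p = 0.0361, from a mean of only 21.3 normalized counts in wild-type mice, with -0.80 in batch B alone and 0.14 in batch A alone). Of 9 other J-domain genes, 7 were lower and 0 higher (median -0.27). These were led by Dnaja1, a farnesylated partner of HSP70 (-0.55, adjusted p = 3.99e-09), Dnajb6, a suppressor of aggregation (-0.50, adjusted p = 1.09e-08), and Dnajc5, the cysteine string protein of synaptic vesicles (-0.32, adjusted p = 3.87e-06).

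The partner lists went in both directions. Among 8 HSP70 co-factors, 4 were lower and 2 higher (median -0.12), with St13, the HSP70-interacting protein (-0.29, adjusted p = 0.000300), Bag6 (0.29, adjusted p = 6.18e-06) and Stub1, the ubiquitin ligase CHIP (-0.23, adjusted p = 0.000872) changed most. Of the 14 genes of HSP90 and its co-chaperones, 5 were lower and 5 higher (median 0.01). Ppid, a peptidyl-prolyl isomerase of HSP90 complexes (-0.42, adjusted p = 1.55e-07), and Ptges3, the p23 co-chaperone (-0.38, adjusted p = 7.69e-08), fell, while Unc45a, a myosin chaperone, rose (0.33, adjusted p = 3.57e-06). Of 5 other small heat shock genes tested, of 6 listed, Cryab was lower (-0.22, adjusted p = 0.00964) and Hspb6 higher (0.26, adjusted p = 0.0168). The TRiC chaperonin, which folds actin and tubulin, had 2 of 8 subunit genes lower, a share near that of all genes, and 0 higher, Tcp1 (-0.27, adjusted p = 6.83e-05) and Cct6a (-0.22, adjusted p = 0.00383). Among 4 heat shock factor genes, Hsf1, the master regulator of the heat shock response, was higher (0.21, adjusted p = 0.00463), whereas Hsf4 (-0.33, adjusted p = 7.52e-05) and Hsbp1, which encodes a protein that binds heat shock factor (-0.22, adjusted p = 7.60e-05), were lower. Of 6 chaperones of the endoplasmic reticulum and mitochondria, 2 were lower and 2 higher (median -0.06), a count of lower genes that ranged from 1 to 3 with 1 mouse left out, with Hspa9 (0.28, adjusted p = 2.04e-05) and Trap1 (0.19, adjusted p = 0.000166) of mitochondria higher and Hsp90b1 of the endoplasmic reticulum lower (-0.17, adjusted p = 0.0114).

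**Figure D5:**
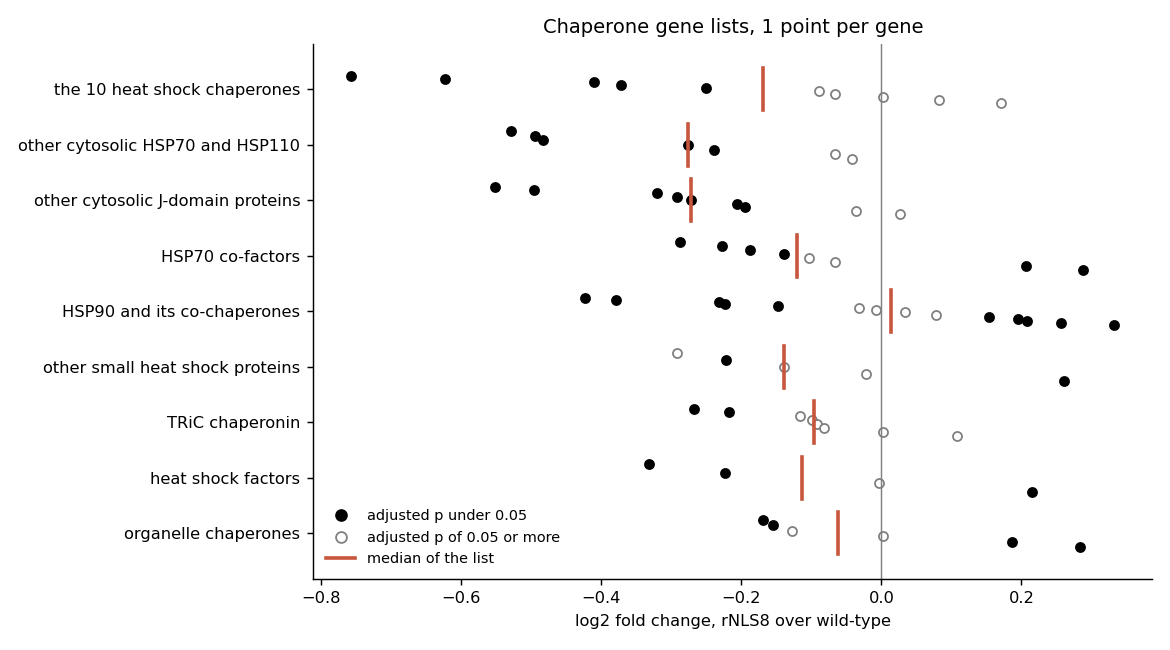
Log2 fold change, rNLS8 over wild-type (x axis), of each tested gene of the 10 members and of 8 further chaperone lists (rows), with filled points for an adjusted p under 0.05, open points for the others and a red line for the median of the list. Medians lie at -0.28 and -0.27 for the other HSP70, HSP110 and J-domain genes and at 0.01 for HSP90 and its co-chaperones, where filled points lie on both sides of 0.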

How the data were processed

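Neocortex RNA of 21 mice was sequenced by BGI as mRNA libraries with paired reads of 100 bases. Reads were aligned to GRCm38 by the authors, who deposited unnormalized read counts by gene symbol. The submitters' processing notes name HISAT2, Bowtie2 and RSEM without roles, and the counting rule for reads that match several copies is not given in the sources used here.

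Counts were tested in R 4.3.3 with edgeR 4.0.16: filterByExpr (minimum count 10, minimum total 15), TMM, the quasi-likelihood F test with genotype and batch, two-sided, with p-values adjusted by Benjamini-Hochberg over 18248 genes and a threshold of 0.05. Every adjusted p without another test named comes from this model. Standard errors (SE) are the absolute log2 fold change over the square root of F. Log2 CPM values had a prior count of 2, and correlations used 100000 permutations within batch (Python 3.11.15). For normalized counts, each library was scaled to the mean effective library size. Promoters and positions came from RefSeq on GRCm38.p6, and transcripts from GENCODE M21. The edgeR and DESeq2 procedures were also run on simulated counts with genotype effects. These held no batch effect, so they do not test how batch was handled.

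Group, batch and mouse number came from the labels. Nothing pairs the mice, and p-values measure the spread between mice. The text names all 10 members, Tardbp and, from each chaperone list, up to 3 genes that passed the threshold, those changed most on the log2 scale. Hsp90ab1, as the partner of a ratio, and marker genes are named outside this rule. The members and lists were chosen with earlier results of these data known. Alternatives were DESeq2 1.42.0 with and without batch, no batch term, the level of Xist as covariate, other scalings and filters, other handling of copy rows, each batch alone and each mouse left out. Adding all rows of a symbol, adding all 8 rows of Hspa1a and Hspa1b, and leaving out rNLS8 mice T60303 and T61340 together were chosen after seeing the data. Reads carried no molecular identifiers.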

Additional observations from a re-analysis of the deposited data

How the results depend on the processing

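The calls of Hsph1, Hspa1b, Hsp90aa1, Hspa1a and Dnajb1 as lower held in each of the 21 fits that left out 1 mouse, with log2 fold changes from -0.78 to -0.72, from -0.68 to -0.57, from -0.43 to -0.37, from -0.41 to -0.32 and from -0.27 to -0.20. They held as well in 15 of 16 other settings, and Hsph1 in all 16. The exception was batch A alone, where 1 member and 2195 genes passed the threshold, with Hspa1a at -0.14, Hspa1b at -0.64, Hsp90aa1 at -0.42 and Dnajb1 at -0.20. That fit has 7 mice. Bag3 passed with scaling by library size alone (0.25 on the log2 scale, adjusted p = 0.0138) and without wild-type mouse T61334 or T_69527, and in none of the other settings. Directions turned only for members that did not pass in any setting: Hspa8 with scaling by library size alone (0.00959), Dnajb5 in batch A alone (0.0571), and Dnajb2, with 0.00253 in the reported fit, under DESeq2 with batch (-0.000855), DESeq2 without batch (-0.0123), edgeR without batch (-0.00918), the level of Xist as covariate (-0.0119), DESeq2 size factors in edgeR (-0.000707), batch A alone (-0.0393) and with 1 mouse left out (range -0.0140 to 0.0196). The cause was not tested. No paired analysis was possible because the numbers in the labels are mouse numbers that no pair of groups shares. The number of lower genes among organelle chaperones was 2 in the reported fit, 1 in 12 of the 21 fits without 1 mouse, 0 with scaling by library size alone and 3 by DESeq2. With scaling by library size alone it also fell from 4 to 2 among HSP70 co-factors and from 1 to 0 among small heat shock genes. In batch A alone, 2 other HSP70 and HSP110 genes, 2 J-domain genes, 1 HSP70 co-factor, 2 genes of HSP90 and its co-chaperones and 0 of the small heat shock, TRiC, heat shock factor and organelle genes were lower. The members with the widest standard errors were Hspa1b, Hspb1 and Hspa1a, at 0.12, 0.11 and 0.10.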

Other observations

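Immediate early genes, which neurons switch on within minutes of activity, were read as a list of their own beside the chaperones. Of 8 genes, 5 were lower in rNLS8 mice and 0 higher, with a median log2 fold change of -0.73, beside 21.7% of all genes that were lower. In batch A alone 4 were lower, beside 4.83% of all genes, and in batch B alone 3, beside 19.8%. Arc, whose protein promotes the uptake of AMPA receptors from synapses, was lowest at -1.57 (standard error 0.30, adjusted p = 0.000147), followed by the transcription factor genes Egr1 at -1.10 (standard error 0.16, adjusted p = 6.44e-06) and Fos at -0.97 (standard error 0.30, adjusted p = 0.00997). Arc also varied widely among wild-type mice, with 5111 ± 3536 normalized counts (SD, n = 11) against 1485 ± 740 (SD, n = 10) in rNLS8 mice.

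The further rows of Hspa1a and Hspa1b are part of a wider feature of the table. It holds 4 rows each for 252 symbols, of which 218 lie between 33742484 and 37904519 on chromosome 17 of GRCm38.p6, the stretch that contains both HSP70 genes. For Hspa1a the main row and the first suffixed row summed to 4745 and 4708 counts over the 21 mice, and differed by at most 6.19% in a mouse. For Hspa1b these sums were 4149 and 4224, with a largest difference of 13.8%, and the remaining pair of rows of each gene differed by up to 22.9% and 24.2%.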
